A study of Mus musculus with 18 samples.

Results

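The interleukin receptor genes of the mouse were examined for open chromatin in bone marrow-derived macrophages (BMDMs). They were taken as the protein-coding genes of GENCODE M21 whose symbol is Il, a number and r, with Il1rn, Il4ra, Il13ra1 and Il2rg left out. The pattern matched 41 symbols, and 37 genes of 21938 protein-coding genes remained after these 4 were removed. All of them are described here. The rule reads symbols and no measured value.

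Chromatin accessibility was measured by ATAC-seq, in which the Tn5 transposase cuts and tags exposed DNA. BMDMs were wild type cells grown from the bone marrow of male C57/BL6 mice of 6 to 8 weeks. Every culture was first exposed for 1 h to DMSO, the solvent of kinase inhibitors used elsewhere in the study. A group of 2 libraries was left untreated, 4 groups of 2 received LPS, a bacterial Toll-like receptor ligand, and 4 groups of 2 received IL-4. Both stimuli were given at 10 ng/mL, and cells were taken at 30 min, 1 h, 2 h or 4 h. The 18 libraries of these 9 groups were merged by the authors into lists of reference peaks, extended regions and summits. No column for a single library was present, so accessibility could not be compared between stimuli, times or replicates, and the depth per library is unknown. Each value below therefore describes the merged catalog and has no replicate error. A site can be in it because of any of the 9 groups.

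Interleukin receptors are built from chains that are used alone or in pairs. Ligand-binding chains give a receptor its specificity, whereas shared chains such as the common gamma chain (Il2rg), the common beta chain (Csf2rb) and gp130 (Il6st) carry the signal for several cytokines. Receptors of the IL-1 and IL-17 families signal through adaptor proteins towards NF-kB. The other receptors of this set signal through JAK kinases and STAT factors, and a few chains (Il1r2, Il13ra2 and the soluble Il22ra2) act as decoys that bind ligand without a signal. An open start site shows that DNA is exposed there, and the presence of RNA or receptor protein was not analysed here.

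The label of the cells was checked first. A reference peak lay within 1000 bp of an annotated start site in 10 of 10 macrophage markers, among them Csf1r, Cd14, Adgre1 and Spi1. The same held for 4 of 9 T cell markers (Lck, Cd28, Cd3d and Cd5), 4 of 10 B cell markers, 4 of 10 neutrophil markers, 2 of 10 mast cell and basophil markers and 5 of 10 fibroblast and stroma markers. Over all coding genes the share with such a peak was 56.5%, and over those with CpG-poor start sites, as defined below, it was 26.3%. Whether cells of these types contributed to the peaks of the receptor genes was not tested.

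The DNA of selected start sites is shown, each with the highest or lowest score among the genes of its receptor family that had a peak there. Il10rb (1644) and Il1r2 (644) also have a highest and a lowest score but are not shown. The score is the value deposited for each summit. Its scale is not stated, and over all 84660 summits it ran from 102 to 2781 with a median of 737. Each sequence is the 150 bases before an annotated start site, or 121 bases centred on a summit where this is said. It is read 5′ to 3′ on the gene's strand, from the mm10 coordinates of assembly GRCm38.p6. Capitals mark matches to the motifs listed further below, on either strand, and lower case letters belong to none of them.
Il1rap, chr16:26581554-26581703, plus strand, score 1929: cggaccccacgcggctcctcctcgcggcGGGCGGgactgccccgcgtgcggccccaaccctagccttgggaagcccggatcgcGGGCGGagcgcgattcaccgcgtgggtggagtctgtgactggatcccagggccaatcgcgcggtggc
Il21r, chr7:125603279-125603428, plus strand, score 1468: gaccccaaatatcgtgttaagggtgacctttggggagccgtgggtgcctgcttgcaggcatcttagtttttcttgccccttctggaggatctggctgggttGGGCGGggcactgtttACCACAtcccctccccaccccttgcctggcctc
Il15ra, chr2:11705140-11705289, plus strand, score 685: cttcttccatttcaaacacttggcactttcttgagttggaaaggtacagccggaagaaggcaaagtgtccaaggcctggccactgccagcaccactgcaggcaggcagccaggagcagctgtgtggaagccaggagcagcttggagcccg
Il3ra, 121 bases around the summit 570 bp before the start, chr14:14345645-14345765, plus strand, score 1657: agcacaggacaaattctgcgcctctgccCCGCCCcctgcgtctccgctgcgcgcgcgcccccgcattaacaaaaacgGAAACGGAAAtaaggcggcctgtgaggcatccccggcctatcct
Il12rb2, chr6:67376189-67376338, minus strand, score 1594: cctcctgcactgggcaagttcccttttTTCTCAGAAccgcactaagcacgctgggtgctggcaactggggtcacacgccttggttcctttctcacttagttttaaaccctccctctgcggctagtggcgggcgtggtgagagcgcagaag
Il12rb1, 121 bases around the summit, chr8:70811424-70811544, plus strand, score 544: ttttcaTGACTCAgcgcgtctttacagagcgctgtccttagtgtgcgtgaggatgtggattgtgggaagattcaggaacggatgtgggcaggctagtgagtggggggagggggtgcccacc
Il10ra, chr9:45269150-45269299, minus strand, score 1308: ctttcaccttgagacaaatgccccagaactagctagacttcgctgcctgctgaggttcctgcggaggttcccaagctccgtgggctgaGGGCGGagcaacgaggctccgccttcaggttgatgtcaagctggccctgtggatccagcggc
Il17ra, start inside the gene, chr6:120473453-120473602, plus strand, score 1657: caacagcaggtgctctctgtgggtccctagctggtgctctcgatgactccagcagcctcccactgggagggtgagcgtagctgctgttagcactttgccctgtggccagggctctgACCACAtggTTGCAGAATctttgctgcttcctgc
Il17rd, chr14:27038791-27038940, plus strand, score 1381: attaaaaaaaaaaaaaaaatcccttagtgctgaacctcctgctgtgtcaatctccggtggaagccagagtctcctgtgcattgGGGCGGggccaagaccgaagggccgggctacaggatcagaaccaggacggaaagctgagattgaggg
The capitals are SP/KLF sites in Il1rap, Il10ra and Il17rd, RUNX and SP/KLF sites in Il21r, IRF and SP/KLF sites in Il3ra, a STAT GAS site in Il12rb2, an AP-1 site in Il12rb1, and RUNX and C/EBP sites in Il17ra. Il15ra held none of the searched motifs in this window, although an SP/KLF site lay within 100 bp of its summit.

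Start sites were then compared with those of all coding genes. A reference peak overlapped the 1000 bp on either side of a start site in 18 of the 37 receptor genes, or 48.6% (95% Wilson interval 33.4% to 64.1%). Among all 21938 coding genes this share was 56.5%, which lies inside the interval. With 37 genes the interval does not separate this share from that of coding genes, and no test was made. Intervals cover the number of genes only and not the error between libraries.

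Start sites rich in the dinucleotide CpG are open in most cell types, so the genes were divided by the observed over expected CpG ratio within 500 bp of a start site. With a ratio of 0.6 or more, 5 of 6 receptor genes had a start site peak, beside 83.9% of CpG-rich coding genes. These were Il1rap, Il3ra, Il6ra, Il17ra and Il17rd, and the exception was Il17rb at a ratio of 0.61. Of the CpG-poor receptor genes 13 of 31 had one, or 41.9% (interval 26.4% to 59.2%), beside 26.3% of CpG-poor coding genes. The lower end of this interval lay just above the background share. When the ratio that divides the genes was raised to 0.75, the shares were 42.4% and 40.7%. When it was lowered to 0.5, they were 37.5% and 19.9%. Both alternatives were added after the data were seen.

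The best score within 1000 bp of a start site had a median of 1350.5 in the 18 genes, with a range of 544 to 1929. For all coding genes with such a peak the median was 1456. In the CpG-poor receptor genes the median was 968, and in CpG-poor coding genes it was 1141. In the 18 receptor genes the score and the CpG ratio had a Spearman rho of 0.533, and in 12321 coding genes rho was 0.247. The score and the ratio are each the highest over a gene's start sites and can refer to different ones, as in Il17ra. All points come from the same merged lists, and no test was made of these correlations.

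**Figure D1:**
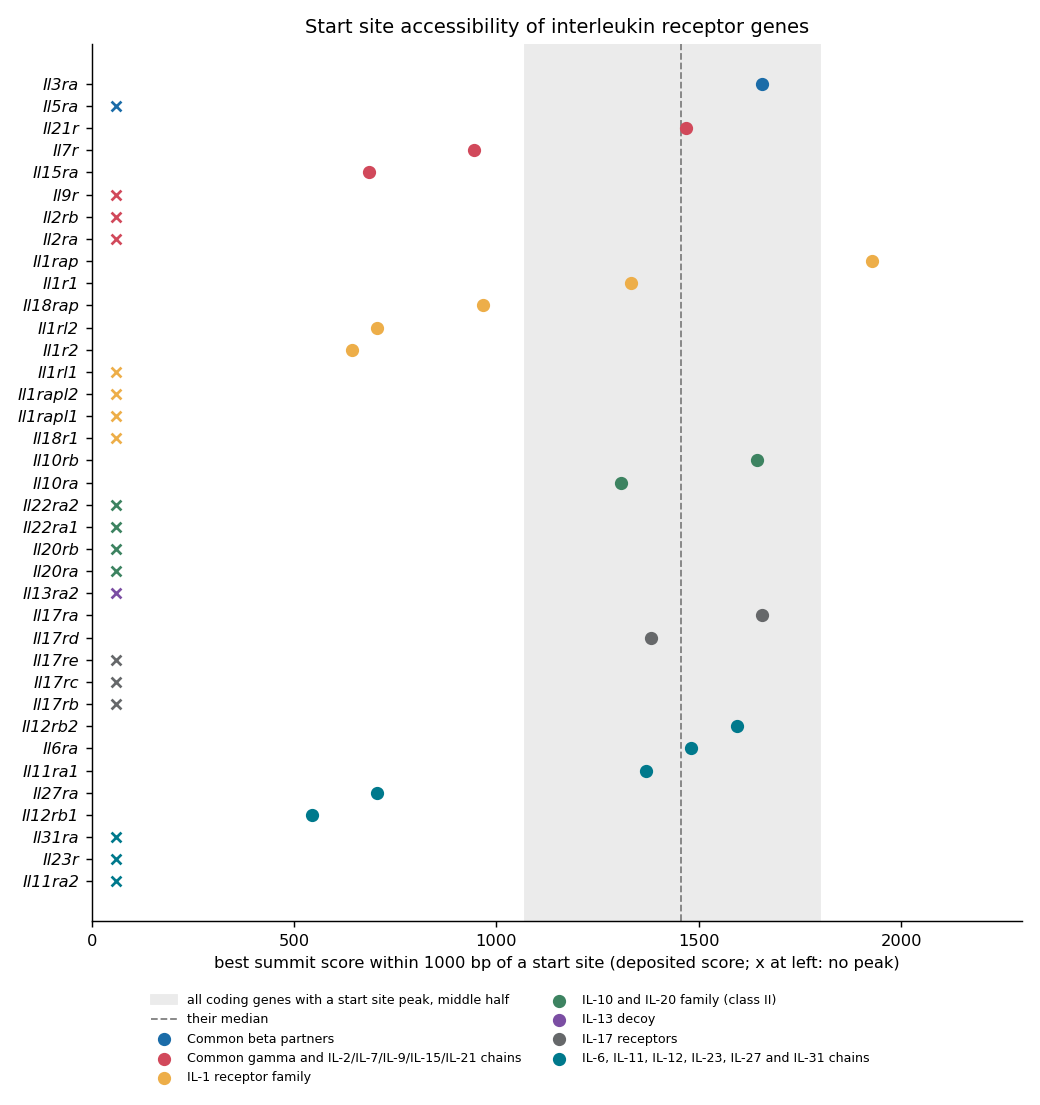
Best deposited summit score within 1000 bp of a start site for each of the 37 interleukin receptor genes, grouped by receptor family in colour. Points are genes with a start site peak and crosses at the left are the 19 genes without one. The dashed line is the median of all coding genes with such a peak (1456) and the grey band runs from their lower to their upper quartile (1071 to 1799). Il1rap is the only receptor gene to the right of the band.

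**Figure D2:**
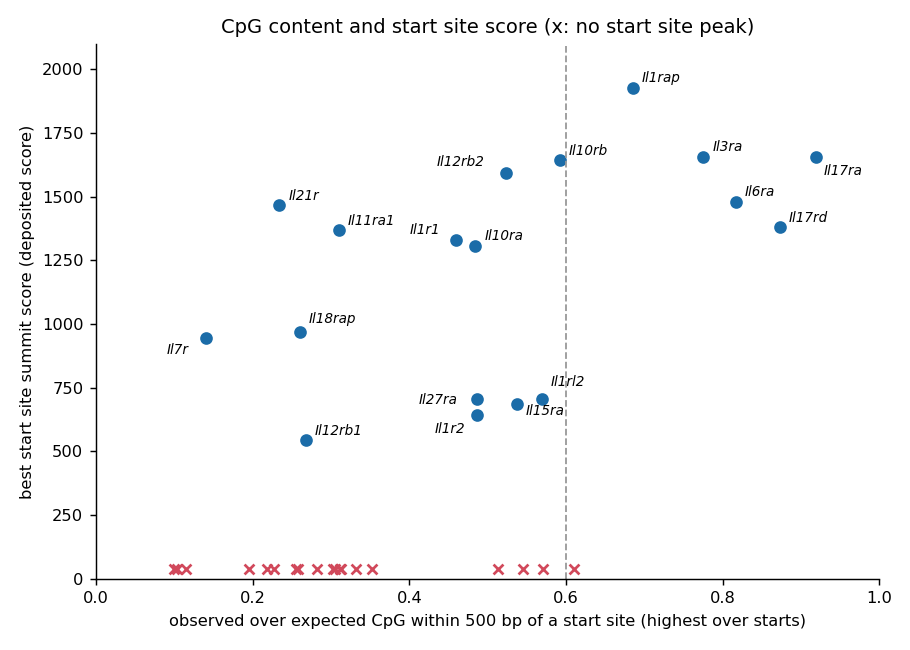
Best start site summit score (deposited score, vertical axis) against the observed over expected CpG ratio of the start site (horizontal axis) for the 37 interleukin receptor genes, with crosses for genes that lacked a start site peak. The dashed line is the ratio of 0.6. Each point pairs the best score with the highest ratio over the gene's start sites, and these can be different starts, as for Il17ra, which is drawn at 1657 but scored 934 at its main start. CpG-poor genes lie between 544 and 1644.

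The IL-1 receptor family had 5 of 9 genes with a start site peak (55.6%, interval 26.7% to 81.1%). Here and in every other family below, the 56.5% of all coding genes lay inside the interval. Il1rap, the accessory chain that completes the IL-1, IL-33 and IL-36 receptors, had the highest score of all 37 genes at 1929, at percentile 83.9 of the coding genes with a score. Il1r1, the signalling IL-1 receptor, scored 1332, with its summit 69 bp before the start and a C/EBP site in the 150 bases ahead of it. Il18rap, the accessory chain for IL-18, scored 968, and a PU.1/ETS site lay in the 150 bases before its start. Il1rl2, which binds IL-36, scored 706. Il1r2, the IL-1 decoy, scored 644, but its peak was at a start site 11.9 kb inside the gene, next to the start of the transcript Gm16894. No peak was found at the most upstream start of Il1r2.

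Members of the same family without a start site peak included the ligand-binding chains of 2 open accessory chains. Il1rl1, the IL-33 receptor ST2, had its nearest peak 4158 bp downstream of a start, with a score of 1531. Here and below, distances to the nearest peak run from the closest annotated start site of the gene. Il18r1, the IL-18-binding chain, had its nearest peak 9789 bp downstream, with a score of 737. Il1rapl1 and Il1rapl2, known from neurons, had their nearest peaks 1970.9 kb and 428.6 kb from a start site. Both lie on chromosome X.

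Chains that signal with the common gamma chain or share its cytokines had a start site peak in 3 of 6 genes. This was 50% (interval 18.8% to 81.2%). Il21r scored 1468, although its start site was CpG-poor (ratio 0.234). Il7r scored 945, with its summit 0.315 kb inside the gene and 26 bp before a coding transcript's start, and had the lowest CpG ratio of the open genes, at 0.141. Il15ra scored 685. A further peak with a score of 737 reached into its start site window, but its summit was outside. Il2ra, the inducible IL-2-binding chain, had its nearest peak 5418 bp upstream (score 1236), and Il2rb, the chain shared by IL-2 and IL-15, had it 20.7 kb upstream (score 467). For Il9r the nearest peak was 4873 bp away and belonged to the start of Snrnp25 (score 1851).

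Of the chains that use the common beta subunit, Il3ra had a peak and Il5ra did not. Il3ra had 2 start site peaks, with scores of 1657 and 1468, at 570 bp and 22 bp before the start. The nearest peak of Il5ra, which marks eosinophils and B-1 cells, was 20 kb away at the start of Trnt1, with a score of 1357. Il13ra2, the IL-13 decoy on chromosome X, had its nearest peak at 457 kb.

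In the group of IL-6, IL-11, IL-12, IL-23, IL-27 and IL-31 chains, 5 of 8 genes had a start site peak. This was 62.5% (interval 30.6% to 86.3%). Il12rb2, the signalling chain for IL-12, scored 1594, and Il6ra, which binds IL-6, scored 1480. Il11ra1, which binds IL-11, scored 1369 at a start that lies 60.5 kb downstream of its most upstream annotated one. Il27ra scored 706, with the summit 0.363 kb inside the gene. Il12rb1, shared by the IL-12 and IL-23 receptors, had the lowest score of the open genes at 544. Its only start site peak had its summit 3.04 kb inside the gene, 856 bp before the start of a transcript with a retained intron, and none lay within 1000 bp of a coding transcript's start.

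Il31ra, Il23r and Il11ra2 lacked a start site peak. The nearest peak was 2045 bp downstream of a start for Il31ra (score 900) and 40.8 kb upstream for Il23r (score 1456). For Il11ra2 it was 104.7 kb away. Around the start of Il11ra2, 0% of stretches of 76 bases, the read length, occurred only once in the genome, so that the lack of a peak there is uncertain. At Il11ra1 the share was 85.6% and at Il31ra 89.2%, while all other receptor genes had at least 97.4%.

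Both chains of the IL-10 receptor had open start sites, unlike the other 4 class II chains of this set. These 2 of 6 genes made 33.3% (interval 9.68% to 70%). Il10rb, which also serves IL-22 and type III interferon, had 3 start site peaks with scores of 823, 1644 and 1381. Il10ra, the IL-10-binding chain, had 3 with scores of 1308, 791 and 282. Il20rb had its nearest peak 1850 bp upstream with a score of 189, and Il20ra had it 6196 bp downstream with a score of 349. The nearest peak of Il22ra1 was 13.1 kb away (score 341), and that of Il22ra2 lay in Ifngr1, 24.9 kb away (score 593). These chains bind cytokines that act mainly on epithelia.

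Il17ra and Il17rd were open among the 5 IL-17 receptor genes (40%, interval 11.8% to 76.9%). Il17ra, the chain shared by most IL-17 receptors, scored 934 at its main start and 1657 at the start of a noncoding transcript 10.4 kb inside the gene. Il17rd, also called Sef, scored 1381 with its summit 30 bp after the start. Il17rc, the partner of Il17ra in binding IL-17A and IL-17F, lacked a start site peak, and its nearest peak was 1718 bp upstream in Il17re (score 544). The nearest peak of Il17re was 2764 bp downstream (score 654) and that of Il17rb was 17.7 kb away (score 727).

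Set out by receptor, the chains of 10 of 23 receptors all had a start site peak. These were the receptors for IL-1, IL-3, IL-6, IL-7, IL-10, IL-11, IL-12, IL-21, IL-27 and IL-36. In 11 receptors some chains had one, and in the IL-20 receptor (Il20ra and Il20rb) and the IL-31 receptor (Il31ra and Osmr) none had. The chain lists are textbook knowledge written down after the values were known. Several receptors share an open chain (Il2rg, Il6st, Il1rap, Csf2rb or Il17ra) and are not independent, and since 56.5% of all coding genes have a start site peak, nothing is read from these counts. For IL-12 and IL-23 the calls rest on the weak Il12rb1 peak near a noncoding start. The IL-2 receptor had a peak at 1 of 3 chains, Il2rg (score 923), and the IL-15 receptor at 2 of 3, Il15ra and Il2rg. In the IL-5, IL-9, IL-17, IL-17C, IL-18, IL-22, IL-23, IL-25 and IL-33 receptors only the shared or accessory chain had a start site peak. In the IL-15 receptor the specific Il15ra had one and the shared Il2rb had none.

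Shared chains and signalling proteins outside the 37 genes had a start site peak in 19 of 20 cases, including Il4ra (1683), Il6st (1851), Csf2rb (1696), Jak1 (1890), Tyk2 (2140) and Myd88 (2114). Of these 20 genes 13 were CpG-rich, as compared to 6 of the 37 receptor genes, and the share among all CpG-rich coding genes was 83.9%. Il13ra1 was the exception, with the nearest peak at 3124 bp. The interleukins that bind these receptors had one in 13 of 30 cases, or 43.3% (interval 27.4% to 60.8%). Il18 (1632), Il15 (1531), Il6 (1212) and Il1b (1071) were among them, whereas Il2, Il5, Il9, Il17a, Il22 and Il33 were not. Toll-like receptors, another family of macrophage sensors, had one in 11 of 12 genes (91.7%, interval 64.6% to 98.5%), and chemokine and chemoattractant receptors in 15 of 29 (51.7%, interval 34.4% to 68.6%). CpG-rich start sites made up 0 of the 30 ligands, 1 of the 12 Toll-like receptors and 2 of the 29 chemokine and chemoattractant receptors, beside start site peaks in 26.3% of CpG-poor and 56.5% of all coding genes. No test of these differences was made.

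Peaks inside the genes were counted next, leaving out those at the genes' own start sites. At least 1 gene body peak was found in 25 of 37 receptor genes, or 67.6% (interval 51.5% to 80.4%), beside 39.9% of all coding genes. The interval lay above the background. Receptor genes were also longer, with a median of 35.3 kb against 17.4 kb. Under 20 kb, 6 of 12 had a gene body peak (50%, interval 25.4% to 74.6%), beside 19.1% of coding genes of that length. From 20 to 50 kb it was 10 of 14 (71.4%, interval 45.4% to 88.3%) beside 54.9%, and at 50 kb or more 9 of 11 (81.8%, interval 52.3% to 94.9%) beside 73.4%. The background share lay below the interval for the shortest genes and inside it for both longer classes. With peaks at the starts of any gene left out, Il10ra and Il17rc were lost, and 4 of 12 short genes remained (33.3%, interval 13.8% to 60.9%) beside 17.3%, which then lay inside the interval. Chemokine and chemoattractant receptors had a gene body peak in 22 of 29 genes (75.9%, interval 57.9% to 87.8%) at a median length of 9.71 kb, and Toll-like receptors in 7 of 12 (58.3%, interval 32% to 80.7%) at 12.2 kb.

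The receptor genes held 97 gene body peaks, of which 88 had their best summit in an intron and 3 in a coding exon. A start of another gene lay within 1000 bp of 11 of them. Their median score was 685, next to 675 for the 34519 gene body peaks of all coding genes. A start site peak and a gene body peak occurred together in 16 genes. Il12rb1 and Il18rap had a start site peak only. In 9 genes only the body had a peak (Il17rc, Il17re, Il18r1, Il1rl1, Il20ra, Il20rb, Il23r, Il2ra and Il31ra). The 2 peaks of Il17rc sat at the start of Creld1, and the peak of Il20ra sat at the start of Gm33332. The remaining 10 genes had neither.

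The highest gene body scores belonged to Il17ra and Il6ra. Il17ra had 10 gene body peaks in 24.3 kb, with scores of 2114 at 16.2 kb and 1916 at 7.62 kb from its start, both above the 934 at its main start. Il6ra had 9, the best with a score of 2087 at 1.78 kb. Il1r1 had 10, led by 1581 at 5.44 kb and 1531 at 69.9 kb. The 10 peaks of Il11ra1 all lay between its far upstream start and the open one, and 6 of them were within 1000 bp of the start of another gene. Il10rb and Il1rap each had an intronic peak with a score of 1812, and Il21r had one of 1657 at 27.1 kb. The single gene body peak of Il7r scored 1381 at 1.79 kb, above its start site. Likewise, the only peak of Il1rl1 scored 1531.
Of the intronic sites just described, those with an AP-1 or PU.1/ETS match close to the summit are shown as 121 bases centred on it, on the gene's strand. The peaks of Il17ra at 16.2 kb, of Il10rb with 1812 and of Il1rl1 held neither motif and are not shown. The sequences were chosen for a match, so they do not tell how common these motifs are.
Il17ra 7.62 kb, chr6:120470804-120470924, plus strand, score 1916: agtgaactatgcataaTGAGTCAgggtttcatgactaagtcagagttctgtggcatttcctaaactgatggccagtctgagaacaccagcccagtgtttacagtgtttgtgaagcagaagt
Il6ra 1.78 kb, chr3:89911353-89911473, minus strand, score 2087: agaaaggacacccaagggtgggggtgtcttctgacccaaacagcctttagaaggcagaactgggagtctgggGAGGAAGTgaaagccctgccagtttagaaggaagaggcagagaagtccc
Il1r1 5.44 kb, chr1:40230459-40230579, plus strand, score 1581: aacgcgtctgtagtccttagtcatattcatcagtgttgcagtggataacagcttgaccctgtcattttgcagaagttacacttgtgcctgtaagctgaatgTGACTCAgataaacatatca
Il1r1 69.9 kb, chr1:40294958-40295078, plus strand, score 1531: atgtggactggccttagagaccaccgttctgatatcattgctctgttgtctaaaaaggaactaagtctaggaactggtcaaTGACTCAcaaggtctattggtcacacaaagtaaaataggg
Il1rap 44.5 kb, chr16:26626194-26626314, plus strand, score 1812: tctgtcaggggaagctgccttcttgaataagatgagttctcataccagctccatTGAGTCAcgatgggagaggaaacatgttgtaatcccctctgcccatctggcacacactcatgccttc
Il21r 27.1 kb, chr7:125630461-125630581, plus strand, score 1657: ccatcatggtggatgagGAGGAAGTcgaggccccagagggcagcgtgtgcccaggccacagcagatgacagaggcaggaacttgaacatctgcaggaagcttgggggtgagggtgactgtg
Il7r 1.79 kb, chr15:9528329-9528449, minus strand, score 1381: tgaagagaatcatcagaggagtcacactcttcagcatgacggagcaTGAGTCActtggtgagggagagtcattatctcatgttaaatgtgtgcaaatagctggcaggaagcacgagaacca
The capitals are AP-1 sites in Il17ra, both Il1r1 peaks, Il1rap and Il7r, and PU.1/ETS sites in Il6ra and Il21r.

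**Figure D3:**
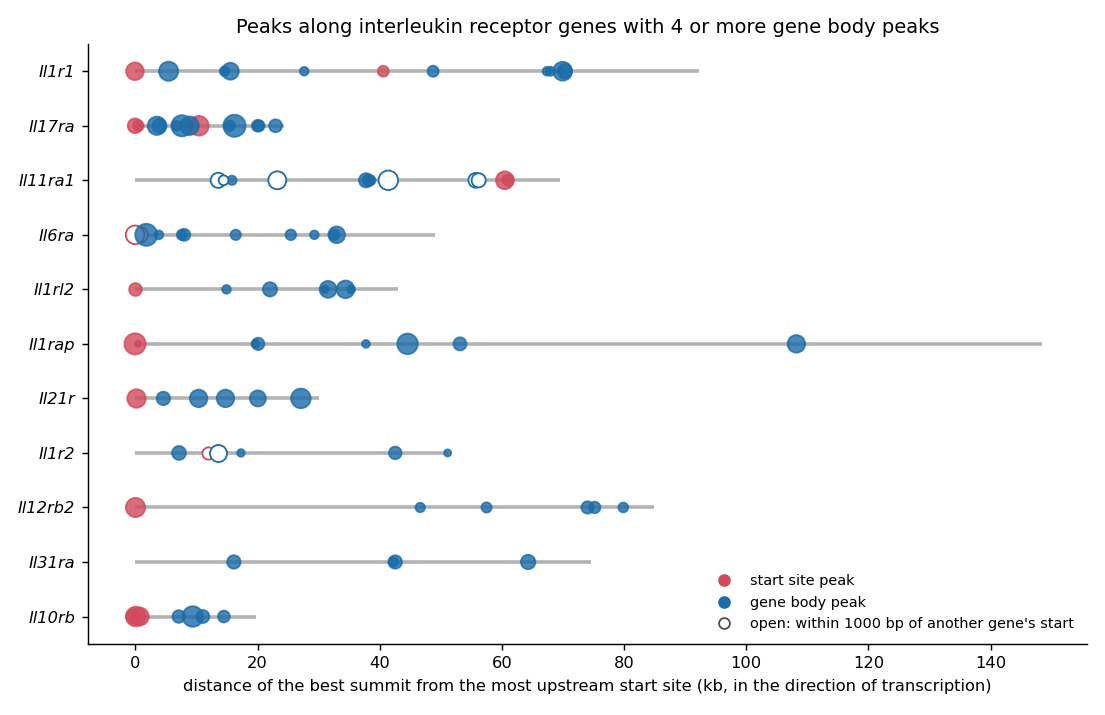
Positions of reference peaks along the 11 interleukin receptor genes with 4 or more gene body peaks, as the distance of each best summit from the most upstream start site in kb. Grey lines are the genes, red points start site peaks, blue points gene body peaks, open points lie within 1000 bp of another gene's start, and point area is proportional to the deposited score. The peaks of Il17ra lie close together within 24.3 kb, while those of Il1rap reach from its start to 108.2 kb.

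Consensus motifs were counted within 100 bp of the summits, on both strands. They were PU.1/ETS (GAGGAAGT), AP-1 (TGACTCA), NF-kB (GGGNNTTCC), STAT GAS (TTCNNNGAA), C/EBP (TTGCNNAAT), RUNX (TGTGGT), SP/KLF (GGGCGG), STAT6 and IRF, where N is any base and a window counted once per motif. No motif contains another. At the best start site summit of the 18 genes, SP/KLF was found in 8 (44.4%) beside 60.1% over all coding genes. RUNX was found in 5 (27.8%, interval 12.5% to 50.9%), namely Il7r, Il12rb1, Il17ra, Il18rap and Il21r, beside 8.94% over all coding genes. In the 13 CpG-poor genes it was found in 4 (30.8%, interval 12.7% to 57.6%), beside 15.5% of CpG-poor coding genes, which lay inside the interval. C/EBP (background 1.2%), IRF (2.2%) and STAT GAS (4.42%) were each found in 2 (11.1%, interval 3.1% to 32.8%), and the first 2 of these background shares lay below the interval. In the CpG-poor genes alone, C/EBP was found in 1 (interval 1.37% to 33.3%, background 2.23%) and IRF in 0 (background 5.13%), so neither background lay below the interval. PU.1/ETS (3.88%), AP-1 (4.54%) and NF-kB (6.08%) were each found in 1 (5.56%), and STAT6 (3.32%) in 0. A match describes the letters only, not binding.

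In the 97 gene body peaks, RUNX was present in 19.6% (22.5% over all coding gene body peaks) and AP-1 in 17.5% (18.9%). STAT6 was present in 12 peaks, or 12.4% (interval 7.22% to 20.4%), beside 7.67%, and the background share lay inside the interval. The 12 peaks lay in Il1r1, Il1rap, Il17ra, Il1r2, Il6ra, Il7r and Il10rb. PU.1/ETS and NF-kB were each present in 8.25%, beside 10.7% and 5.85%.

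A run of 6 IL-1 family receptor genes lies side by side on chromosome 1 (chr1:40074079-40551705, 477.6 kb), in the order Il1r2, Il1r1, Il1rl2, Il1rl1, Il18r1 and Il18rap, all on the plus strand. It held 43 reference peaks in 34 extended regions. Of these peaks 6 were start site peaks, 24 were elsewhere inside a gene and 13 lay between genes. The 62 kb between Il1rl2 and Il1rl1 alone held 9 of the 13, with scores from 430 to 1606, the highest of the cluster. A further 2 peaks, with scores of 1406 and 1308, lay in the 7.35 kb before Il1rl2. The 99.8 kb between Il1r2 and Il1r1 held 1 peak with a score of 613. Which gene a peak between genes acts on was not analysed here.

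**Figure D4:**
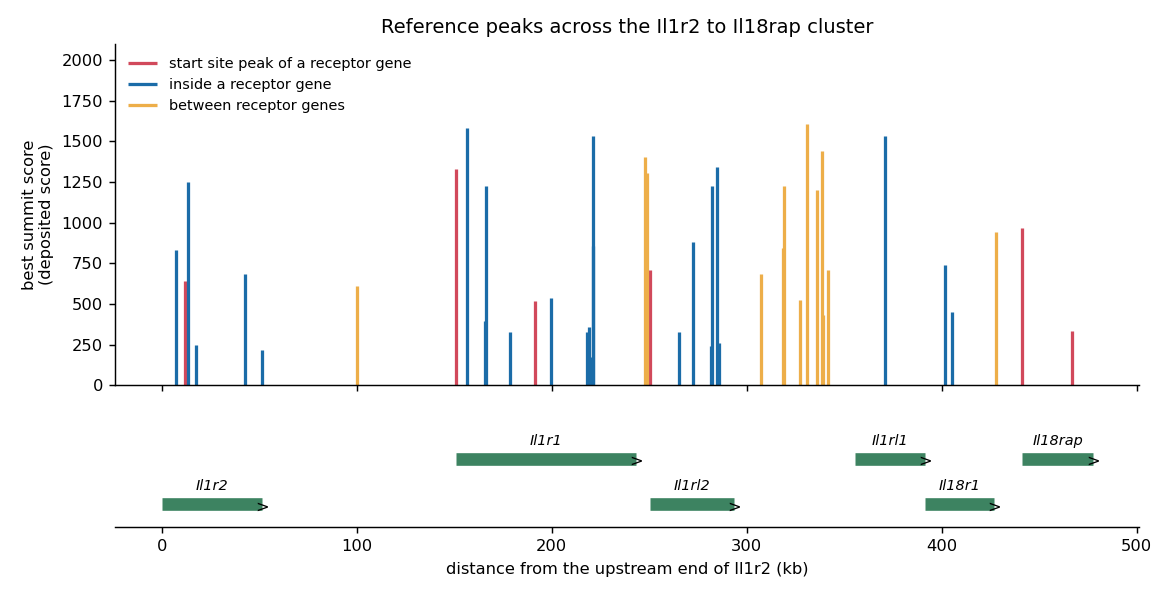
Reference peaks across the chromosome 1 cluster of IL-1 family receptor genes, as best deposited summit score (upper panel) against distance from the upstream end of Il1r2 in kb, with gene spans below and arrowheads in the direction of transcription. Red lines are start site peaks, blue lines other peaks inside the genes and yellow lines the 13 peaks between genes. The group of yellow lines before Il1rl1 reaches 1606, although Il1rl1 has no start site peak.

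Other receptor genes lie in pairs. Il15ra and Il2ra, 62.5 kb apart by their starts, held 8 peaks, all inside the genes, with a best score of 1002, and shared 2 extended regions within 50 kb of both starts. Il12rb2 and Il23r held 9, with a best score of 1594 at the start of Il12rb2. Il17re and Il17rc held 4 and shared 4 such regions, so the counts are not independent within either pair. Il22ra2 and Il20ra held 5, of which 1 lay inside either gene.

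Extended regions, which join neighbouring peaks, were counted within 50 kb of the most upstream start site. At least 1 was found for 33 of 37 receptor genes, beside 78.9% of coding genes. The median was 5 regions (quartiles 4 to 8, range 0 to 20), as compared to 4 for all coding genes (quartiles 1 to 8). Il10rb had the most with 20, followed by Il10ra with 18, Il21r with 17, Il6ra and Il12rb1 with 13 each and Il20rb with 12. No region was found for Il11ra2, Il13ra2, Il1rapl1 and Il1rapl2.

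Receptor genes with and without a start site peak had medians of 7 and 5 regions, respectively, while the values for coding genes were 7 and 1. Among receptor genes without one, Il20rb had 12 regions, Il1rl1 had 10 and Il17rb had 7. At the other end, Il3ra had 2 regions despite a start site score of 1657, and Il1rap and Il12rb2 had 4 each. The 238 regions summed over genes comprised 224 distinct ones, and regions near a receptor gene can also lie near its neighbours.

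**Figure D5:**
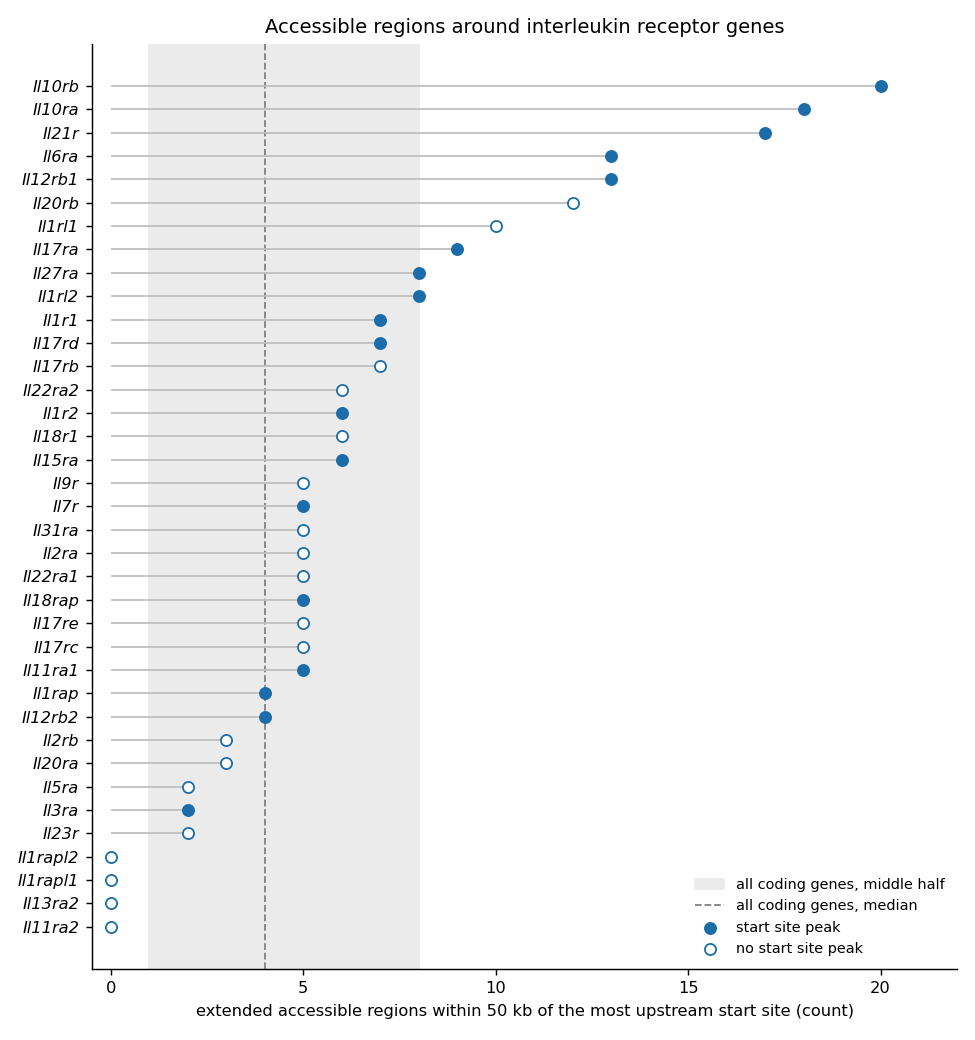
Number of extended accessible regions within 50 kb of the most upstream start site for each of the 37 interleukin receptor genes. Filled points are genes with a start site peak, open points genes without, the dashed line is the median of all coding genes (4) and the grey band runs between their quartiles (1 to 8). Il10rb (20), Il10ra (18) and Il21r (17) lie farthest to the right, and Il20rb (12) is the highest open point.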

How the data were processed

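The authors made ATAC-seq libraries from BMDMs and sequenced single-end reads of 76 bases. By the study's methods and processing notes, reads were cleaned with BBDuk and Trimmomatic 0.39, mapped to mm10 with ShortStack and filtered with SAMtools 1.9. Peaks were called with MACS2 2.2.6, with duplicates kept and no local background, and kept where replicates overlapped. No shift to the Tn5 cut site is named, so a summit can lie beside the cut. Kept duplicates can raise a score.

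The deposited lists hold positions and, for summits, a score given by the authors, whose scale is not stated. They hold 0 columns of single libraries or of other samples, so no replicates, depth or groups could be compared.

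Positions were counted from 1 and matched to GENCODE M21 and assembly GRCm38.p6, which shares the mm10 coordinates (21 of 21 chromosomes held all entries). A start site peak is a reference peak overlapping the 1000 bp around any annotated start by at least 1 bp, and its score is the best summit inside that window. Gene body peaks overlap the gene outside these windows. Shares of genes carry Wilson intervals at 95%. The scripts (Python 3.11.15, pandas 2.3.3, numpy 2.4.6) were tested on simulated intervals. All 37 genes are named by rule. The rule reads symbols only, but the choice of this gene family and of the partner, ligand, marker and motif lists was made with earlier results of these data known, and differences from the background are given without a test.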

Additional observations from a re-analysis of the deposited data

How the results depend on the processing

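No paired analysis was possible because the lists carry no column per library, so the shared replicate numbers could not be used and no replicate could be left out. Receptor genes with a start site peak numbered between 14 and 21 of 37 under all alternatives run, within 1.5 times the 18 reported, beside 50.7% to 59.9% of all coding genes under the same settings where these were computed. A 2500 bp window added Il17rc, Il20rb and Il31ra (21, beside 59.9%). The most upstream start alone left out Il11ra1, Il12rb1 and Il1r2 (15, beside 52.1%), and peaks at or above the median score left out Il12rb1, Il1r2, Il1rl2 and Il27ra (14, beside 50.7%). The median score ranged from 1332 to 1369. Genes with a gene body peak numbered 23 (beside 34.1% of coding genes) without 2500 bp around start sites, 22 (38.3%) without the starts of any gene, 21 when Il11ra1 was also counted from its next start, and 19 (26.4%) for peaks at or above the median score. The median of 5 regions within 50 kb (all coding genes 4) became 2 within 20 kb (2), 10 within 100 kb (9), 7 when summits were counted (6), 3 for regions at or above the median score (2) and 8 when the distance was taken from both gene ends (6), by construction of these windows. The CpG-poor share with a ratio under 0.5 was 37.5% beside 19.9%. Alternatives on the CpG ratio, on Il11ra1, Il11ra2 and on summit positions were chosen after seeing the data. Depth per library is unknown, so a missing peak is not evidence of closed chromatin in any single group.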
